A study of Mus musculus with 9 samples.

Results

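A set of 10 genes that decide how muscle takes up, stores and chooses fatty acids as fuel were followed through disuse and the return to load. The genes were Lpl, Angptl4, Cd36, Fabp3, Acsl1, Plin2, Pnpla2, Cpt1b, Pdk4 and Ucp3. They were listed by symbol, and each was matched through its Ensembl identifier to the count table. All 10 were found among its 55487 genes, and all 10 were among the 14851 genes with enough reads to be tested. Polyadenylated RNA of whole gastrocnemius muscle was sequenced from wild-type C57BL/6 mice (C57BL/6J in the study's text), which the labels call male. The Control group (n = 4) lived in conventional cages with normal ambulation. The Unloading group (n = 2) had its hindlimbs suspended for 10 days, a procedure that makes the muscle waste. The Reloading group (n = 3) was likewise unloaded and then walked freely in the cage for 1 day. No transgene or drug was used in any group, and the age of the mice was not given in the sources used here. The labels do not say which libraries came from separate mice, so p-values measure the spread between these libraries.

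Fatty acids reach a muscle fibre bound to albumin or as triglyceride in circulating lipoproteins. Lipoprotein lipase, held on the capillary wall by Gpihbp1, releases them from the triglyceride, transporters and binding proteins carry them into the fibre, and acyl-CoA synthetases trap them as acyl-CoA. They are then stored in lipid droplets coated by perilipins or passed into mitochondria by carnitine palmitoyltransferase 1, while pyruvate dehydrogenase kinases hold back the oxidation of glucose.

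Between 9252443 and 19612101 read pairs were assigned to genes per library. Xist was at 0 to 5 read pairs and Ddx3y at 1013 or more in every library, as in male tissue, although the study's methods name female mice for the unloading procedure. The muscle marker Ckm was at 153913 to 339931 read pairs. Transcripts of skin, such as Krt2, stood out in Control 2 and Reloading 1, where the summed level of 9 skin markers was 303 and 136 CPM (read counts scaled to a common library size) against 2.31 to 4.46 in the other libraries. The TMM factors, which scale libraries to each other in edgeR, were 0.928 to 0.96 in Control and Unloading and 1.11 to 1.13 in Reloading. Mitochondrially encoded genes took 9.359% to 10.6% of read pairs in Control and Unloading and 6.487% to 6.753% in Reloading. Scaling by library totals alone moved the median log2 fold change of all genes to 0.27 in Reloading against Unloading and to 0.25 in Reloading against Control, so changes in Reloading are changes relative to the bulk of genes.

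After 10 days of unloading, the transcripts for hydrolysis of lipoprotein triglyceride (Lpl), for fatty acid binding inside the fibre (Fabp3) and for the lipid droplet coat (Plin2) fell. With 2 Unloading libraries, none of the 10 genes passed as higher. Pdk4 came close, at 1.58 times its Control level (95% confidence interval 1.15 to 2.15, adjusted p = 0.0625). After 1 day of reloading, the lipase fell again while its inhibitor Angptl4 rose to 3.38 times its unloaded level. Fabp3, Plin2 and Acsl1 rose, and Cd36 and Pnpla2 fell. Calls for Fabp3, Plin2 and Pnpla2 were lost in some alternatives, as given for each gene below. Against Control, the reloaded muscle held 2.17 times as much Pdk4 and 2.23-fold less Lpl. In Unloading against Control, 3 of the 10 genes passed an adjusted p of 0.05, 0 higher and 3 lower, where 9.90% of all tested genes passed, 4.40% higher and 5.50% lower. At an unadjusted p under 0.05 in edgeR 2 were higher, Pdk4 and Cd36, and DESeq2 called 0 higher at an adjusted p under 0.05. In Reloading against Unloading 7 passed, 4 higher and 3 lower, against 37.5% of all tested genes, 18.5% higher and 19.0% lower. In Reloading against Control 7 passed, 3 higher and 4 lower, against 43.5% of all tested genes, 22.1% higher and 21.3% lower. The median log2 fold change of the 10 genes was -0.06, 0.21 and -0.13 in these comparisons, beside 0, 0.03 and 0.01 for all tested genes. Each pair of comparisons shares a group of libraries, so their values are set side by side and are not independent. Without the 2 libraries that held skin transcripts, 3, 6 and 7 of the 10 genes passed, the gene lost being Pnpla2 in Reloading against Unloading while Plin2 gave way to Pdk4 in Unloading against Control.

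**Figure D1:**
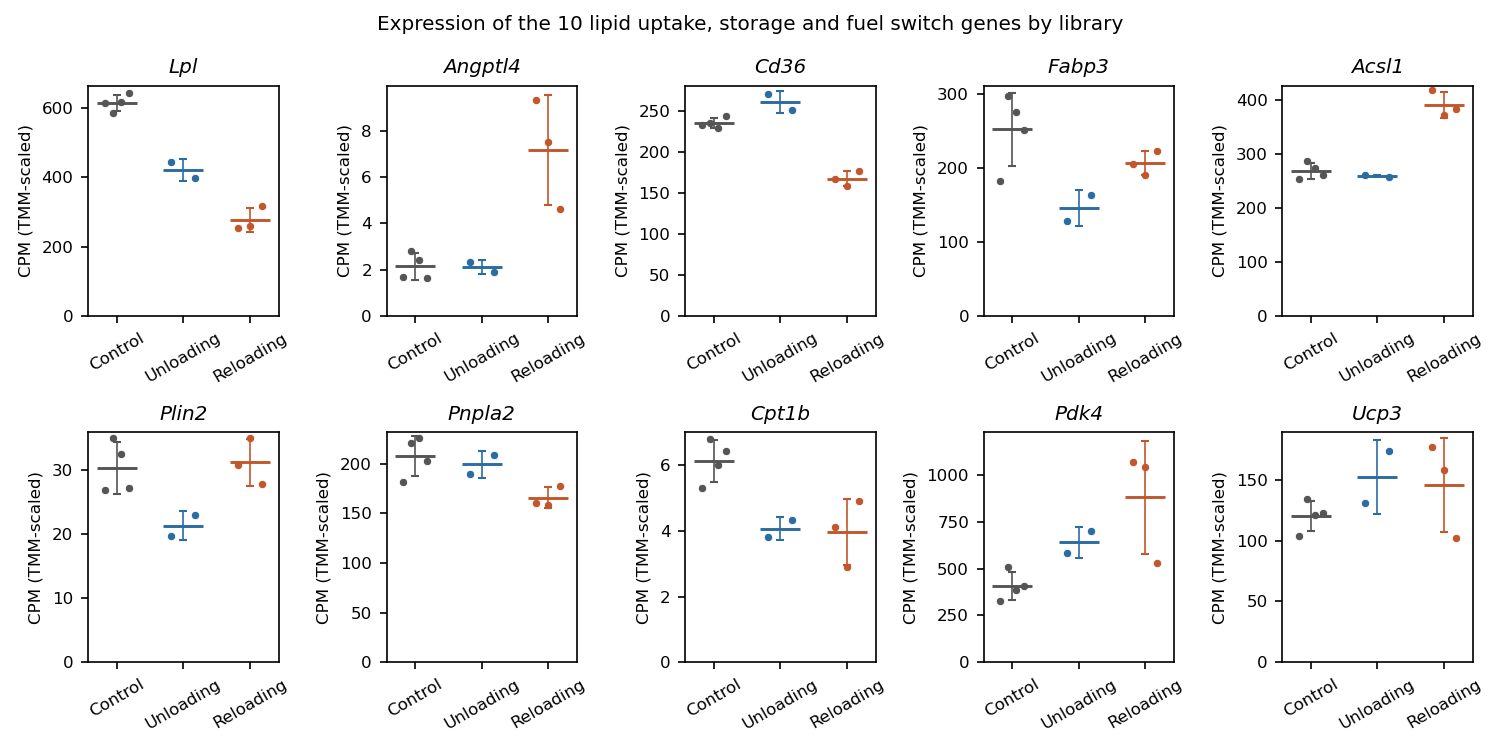
Level of each of the 10 genes in every library, in TMM-scaled CPM on axes that start at 0, with points for libraries, horizontal bars for group means and whiskers of 1 SD (n = 4 Control, 2 Unloading and 3 Reloading). Lpl steps down from Control through Unloading to Reloading without overlap, Fabp3 and Plin2 are lowest in Unloading, and the 3 Reloading libraries are spread widely for Angptl4, Pdk4 and Ucp3.

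Lpl (ENSMUSG00000015568, chr8:68880491-68907448 on the plus strand of GRCm38) encodes lipoprotein lipase. Its level was 614, 586, 619 and 644 CPM in Control 1 to 4, 444 and 398 CPM in Unloading 1 and 2, and 253, 260 and 316 CPM in Reloading 1 to 3. No 2 groups overlapped, and Lpl was the member with the tightest Control values after Cd36, with a coefficient of variation of 3.82%. Lpl fell with unloading (log2 fold change -0.55 ± 0.09, SE, adjusted p = 0.00275) and fell again with reloading (-0.61 ± 0.09, adjusted p = 0.000154). In reloaded muscle it was 2.23-fold lower than in Control (-1.16 ± 0.08, adjusted p = 5.94e-08). The drop held with scaling by library totals alone, where it was -0.36 in Reloading against Unloading (adjusted p = 0.00511).

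Angptl4 (ENSMUSG00000002289, chr17:33773750-33781830, minus strand) encodes a secreted inhibitor of lipoprotein lipase. It was the scarcest of the 10 genes, with 15 to 34 read pairs per Control library. Its level was 1.69, 2.82, 2.43 and 1.63 CPM in the Control libraries, 2.32 and 1.91 CPM in Unloading, and 9.35, 7.52 and 4.64 CPM in Reloading. Control and Unloading overlapped, and every Reloading library lay above both. The difference between Unloading and Control was -0.05 ± 0.32 on the log2 scale (adjusted p = 0.938), an interval from -0.73 to 0.62 that leaves room for changes in either direction. Angptl4 then rose with reloading to 3.38 times the unloaded level (95% confidence interval 2.20 to 5.20, adjusted p = 0.000288) and to 3.26 times the Control level (2.27 to 4.67, adjusted p = 5.11e-05).

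Lipase and inhibitor thus moved in opposite directions during the day of reloading. Counted within each library, where scaling plays no part, there were 0.35 ± 0.106 Angptl4 read pairs per 100 Lpl read pairs in Control and 0.523 and 0.481 in the Unloading libraries. The Reloading libraries held 3.69, 2.9 and 1.47, all above the highest value elsewhere. Gpihbp1, the capillary anchor of the lipase, was at 13.8, 15.4, 15.6 and 12.8 CPM in Control, 17.7 and 14.2 CPM in Unloading and 24.5, 24.6 and 21.2 CPM in Reloading. It rose with reloading against Unloading (0.56 ± 0.13, adjusted p = 0.00304) and against Control (0.70 ± 0.11, adjusted p = 0.000104). Per 100 Lpl read pairs, Gpihbp1 went from 2.35 ± 0.29 in Control to 3.78 ± 0.299 in Unloading and 8.62 ± 1.65 in Reloading. Each of these ratios is a description, without a test.

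Cd36 (ENSMUSG00000002944, chr5:17781690-17888801, minus strand) encodes the fatty acid translocase of the plasma membrane. In CPM, Control libraries were at 233, 236, 230 and 244, Unloading libraries at 271 and 252, and Reloading libraries at 167, 159 and 177. The 3 groups did not overlap, with the Unloading pair highest. The excess in Unloading did not pass the test (0.15 ± 0.07, adjusted p = 0.189). Cd36 fell with reloading, 1.56-fold against Unloading (-0.64 ± 0.07, adjusted p = 1.13e-05) and 1.41-fold against Control (-0.49 ± 0.06, adjusted p = 1.77e-05). The ratio of Lpl to Cd36 read pairs was 2.61 ± 0.0866 in Control, 1.61 ± 0.0436 in Unloading and 1.65 ± 0.135 in Reloading. In the Unloading ratio Lpl was lower, and in the Reloading ratio both genes were lower.

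Fabp3 (ENSMUSG00000028773, chr4:130308595-130315463, plus strand) encodes the heart and muscle fatty acid binding protein, which carries fatty acids through the cytosol. It read 183, 298, 276 and 252 CPM in Control 1 to 4, 129 and 163 CPM in Unloading, and 206, 191 and 223 CPM in Reloading. Both Unloading libraries lay below every Control and every Reloading library, while Control and Reloading overlapped because Control 1 was low. Fabp3 fell 1.73-fold with unloading (-0.79 ± 0.15, adjusted p = 0.00544), the largest fall among the 10 genes in that comparison. It rose with reloading (0.50 ± 0.16, adjusted p = 0.0216), a call that was lost with DESeq2 (adjusted p = 0.0713) and without Unloading 1 (0.33, adjusted p = 0.222). Leaving out Unloading 1 also took the fall with unloading to an adjusted p of 0.145 at a log2 fold change of -0.63. In Reloading against Control the difference was -0.29 ± 0.13 (adjusted p = 0.0825), and it passed as -0.39 (adjusted p = 0.000994) with a replicate block by the numbers in the sample descriptions. Of the 823 exon bases of Fabp3, 19.6% are shared with other annotated genes, and read pairs there are not assigned to either gene.

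Plin2 (ENSMUSG00000028494, chr4:86648386-86670060, minus strand) encodes perilipin 2, the coat protein of lipid droplets in cells other than adipocytes. Its values were 26.8, 35, 32.4 and 27.1 CPM in Control, 19.7 and 22.9 CPM in Unloading, and 30.8, 34.9 and 27.7 CPM in Reloading. The Unloading libraries were below all others, and Reloading lay within the span of Control. Plin2 fell 1.43-fold with unloading (-0.51 ± 0.13, adjusted p = 0.0201) and rose 1.46-fold with reloading (0.54 ± 0.13, adjusted p = 0.00471). Against Control the reloaded level differed by 0.03 on the log2 scale, with an interval from -0.20 to 0.26. Without Unloading 1 neither change of Plin2 passed (-0.41, adjusted p = 0.266, and 0.44, adjusted p = 0.0645), and without the skin-bearing libraries the fall stood at -0.44 (adjusted p = 0.0515).

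Pnpla2 (ENSMUSG00000025509, chr7:141455198-141460743, plus strand) encodes adipose triglyceride lipase, which starts the breakdown of stored triglyceride. Control libraries held 182, 221, 226 and 203 CPM, Unloading libraries 190 and 209 CPM, and Reloading libraries 161, 159 and 178 CPM. Unloading lay inside the Control range and all Reloading libraries lay below both groups. Pnpla2 fell with reloading, by a small margin against Unloading (-0.27 ± 0.09, adjusted p = 0.0367) and against Control (-0.33 ± 0.08, adjusted p = 0.00396). Both calls were lost with scaling by library totals alone (-0.02, adjusted p = 0.886, and -0.09, adjusted p = 0.375). The first was also lost when any one of Reloading 1 (adjusted p = 0.0896), Reloading 2 (0.106) or Unloading 2 (0.225) was left out.

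The perilipins were also compared with each other within each library, in CPM per kilobase of exon that no other gene shares. Plin4 made up the largest share of the 5 perilipins in every library, from 55.1% to 71.7%. The share of Plin2 was 11.5%, 13.9%, 13.8% and 10.3% in Control, 6.11% and 9.5% in Unloading, and 13.9%, 17.7% and 12.6% in Reloading. The Unloading libraries thus had the 2 lowest Plin2 shares. Plin5, which ties droplets to mitochondria, was at 11.8% ± 2.53 in Control and 10.9% ± 1.82 in Reloading, within the spread between libraries. In Unloading it was at 7.43% and 10.2%. Its lowest share was thus also in Unloading 1, the library where Plin4 took its highest share, 71.7%.

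The stretch upstream of the transcription start was read from RefSeq promoters (GRCm38.p6) for the 7 genes that matched, which left out Lpl, Angptl4 and Cpt1b, and 4 are shown because they form pairs that changed together. Fabp3 and Plin2 fell with unloading and rose with reloading, and Cd36 and Pnpla2 fell with reloading. Each line gives the 250 bases before the start that RefSeq annotates, 5′ to 3′ on the strand of the gene, and capitals mark the hexamer AGGTCA on either strand, the half-site bound by nuclear receptors such as the PPARs. The windows are chr4:130308488-130308737 (plus) for Fabp3, chr4:86670060-86670309 (minus) for Plin2, chr5:17835897-17836146 (minus) for Cd36 and chr7:141454938-141455187 (plus) for Pnpla2. The RefSeq start differs from the end of the gene in the count table, and for Fabp3 and Cd36 it lies inside the gene as Ensembl outlines it.
Fabp3: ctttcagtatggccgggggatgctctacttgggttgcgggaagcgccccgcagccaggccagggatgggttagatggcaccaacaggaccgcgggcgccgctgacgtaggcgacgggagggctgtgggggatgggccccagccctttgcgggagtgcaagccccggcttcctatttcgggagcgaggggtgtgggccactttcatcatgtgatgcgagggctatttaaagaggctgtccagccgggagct
Plin2: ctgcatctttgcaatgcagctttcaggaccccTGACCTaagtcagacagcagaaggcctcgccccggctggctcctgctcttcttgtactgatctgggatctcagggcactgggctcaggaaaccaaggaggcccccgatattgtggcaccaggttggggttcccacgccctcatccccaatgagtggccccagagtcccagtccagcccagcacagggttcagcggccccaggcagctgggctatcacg
Cd36: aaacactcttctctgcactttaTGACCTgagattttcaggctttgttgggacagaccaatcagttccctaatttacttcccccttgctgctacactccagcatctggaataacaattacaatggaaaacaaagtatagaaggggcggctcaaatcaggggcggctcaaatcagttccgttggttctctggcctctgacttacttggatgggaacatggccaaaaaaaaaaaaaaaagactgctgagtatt
Pnpla2: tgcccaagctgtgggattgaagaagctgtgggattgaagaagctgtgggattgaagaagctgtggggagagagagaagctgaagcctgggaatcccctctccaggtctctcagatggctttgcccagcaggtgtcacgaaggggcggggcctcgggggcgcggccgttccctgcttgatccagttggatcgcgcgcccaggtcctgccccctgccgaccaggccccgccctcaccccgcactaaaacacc
The half-site begins 218 bases before the start in Plin2 and 228 bases before it in Cd36, in both on the strand opposite to the gene. It was not found in the windows shown for Fabp3 and Pnpla2, so neither pair shared it. Among all 8 windows of the 7 genes, 3 held it (Cd36, Plin2 and Ucp3, the last with 2 copies), where 14.0% of 32851 mouse windows of the same length held it. CCAAT was in 4 of the 8 windows (Acsl1, Cd36, Pdk4 and Plin2), against 33.8% of all windows. The forkhead motif TGTTTAC was in 0 of the 8, against 3.17% of all windows, and TATAAA in 0, against 12.4%. A direct repeat of the half-site with 1 base between the copies was likewise in 0, against 0.0335% of all windows. Both strands were searched, and a match or its absence describes only these letters.

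Acsl1 (ENSMUSG00000018796, chr8:46471037-46536051, plus strand) encodes the long-chain acyl-CoA synthetase that activates most fatty acids in oxidative muscle. It was at 253, 287, 275 and 261 CPM in Control, 261 and 258 CPM in Unloading, and 418, 373 and 383 CPM in Reloading. Control and Unloading overlapped completely, and the gap to Reloading was wider than the range of any group. Acsl1 rose 1.51-fold against Unloading (0.59 ± 0.08, adjusted p = 5.01e-05) and 1.46-fold against Control (0.54 ± 0.07, adjusted p = 1.1e-05). The interval of its difference between Unloading and Control, -0.21 to 0.11, excludes a change of that size.

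Among its relatives, Acsl1 supplied 56.0% to 64.5% of the family's CPM per kilobase in Control, 52.7% and 51.6% in Unloading and 76.9%, 73.5% and 71.2% in Reloading. The shift in Reloading joined a rise of Acsl1 and of Acsl5 (1.00 ± 0.16 against Unloading, adjusted p = 0.000161) to falls of Acsl3 (-1.44 ± 0.24, adjusted p = 0.00033), Acsl4 (-0.92 ± 0.11, adjusted p = 2.07e-05) and Acsl6 (-0.42 ± 0.08, adjusted p = 0.000858). The call for Acsl6 was lost with scaling by library totals alone. In Unloading against Control, Acsl6 was the family member that rose (0.42 ± 0.08, adjusted p = 0.00393), a call that did not hold without Unloading 1.

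Cpt1b (ENSMUSG00000078937, chr15:89416405-89425863, minus strand) encodes the muscle form of carnitine palmitoyltransferase 1, the gate for long-chain fatty acids into mitochondria. Its counts were low for so abundant a muscle enzyme, 40 to 84 read pairs per library. Of its 3372 exon bases, 81.4% are shared with Gm44502, an overlapping annotation on the same strand that itself held 0 or 1 read pairs per library. With the stated counting settings, pairs falling in the shared bases count for neither gene. The values below therefore rest mainly on 628 bases and understate the level. They were 5.3, 6.8, 6 and 6.43 CPM in Control, 3.82 and 4.32 CPM in Unloading, and 4.11, 2.89 and 4.9 CPM in Reloading. Every Control library lay above every other library, and Unloading and Reloading overlapped. The difference in Unloading missed the threshold (-0.59 ± 0.19, adjusted p = 0.0643), and the difference in Reloading against Control passed it (-0.63 ± 0.17, adjusted p = 0.00819) but not with scaling by library totals alone (-0.39, adjusted p = 0.0672).

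Cpt1a, the form of the same enzyme typical of liver, was higher in Unloading and in Reloading than in Control, without overlap. It rose with unloading from 8.23 ± 1.32 to 12.7 ± 0.958 CPM (0.62 ± 0.18, adjusted p = 0.0386), a call that did not hold without Unloading 1. With reloading it rose again to 20.1 ± 4.47 CPM (0.66 ± 0.18, adjusted p = 0.00863). In reloaded muscle Cpt1a was 2.43 times the Control level (1.93 to 3.06, adjusted p = 1.09e-05). Because most of the Cpt1b reads are unassigned, the 2 forms cannot be set against each other in level.

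Pdk4 (ENSMUSG00000019577, chr6:5483351-5496309, minus strand) encodes the pyruvate dehydrogenase kinase that fasting and fatty acids induce, and which turns muscle from glucose towards fat. It was at 326, 506, 387 and 406 CPM in Control 1 to 4, 582 and 698 CPM in Unloading, and 1070, 1040 and 532 CPM in Reloading 1 to 3. Both other groups lay above Control without overlap, and Reloading 3 lay below both Unloading libraries. Pdk4 rose against Control in reloaded muscle, 2.17-fold (1.64 to 2.87, adjusted p = 0.000217). The intermediate steps did not pass, at 0.66 ± 0.21 for Unloading against Control (adjusted p = 0.0625) and 0.46 ± 0.23 for Reloading against Unloading (adjusted p = 0.127). Without Reloading 3 they were 0.66 (adjusted p = 0.00678) and 0.73 (adjusted p = 0.00195).

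Within the pyruvate dehydrogenase kinases, the share of Pdk4 was 35.3%, 42.9%, 37% and 40.1% in Control, 50.2% and 51.5% in Unloading and 69.7%, 69.3% and 52.7% in Reloading, in CPM per kilobase. The groups did not overlap in this share. Pdk2, a broadly expressed kinase of the family, went from 57.7% ± 2.99 in Control to 46.9% ± 0.66 and 34.3% ± 9.31. Pdk3 was at 0.0374% to 0.108% of the family. With TMM scaling, Pdk2 itself fell in Reloading, against Unloading (-0.40 ± 0.08, adjusted p = 0.00143) and against Control (-0.43 ± 0.07, adjusted p = 0.00018). There were 0.751 ± 0.104 Pdk4 read pairs per Pdk2 read pair in Control and 2.21 ± 0.79 in Reloading. Pdk1 fell with unloading (-0.37 ± 0.07, adjusted p = 0.00568), a call that did not hold without Unloading 1. With TMM scaling, Pdk1 was lower again in Reloading against Unloading (-0.29 ± 0.07, adjusted p = 0.00617).

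**Figure D2:**
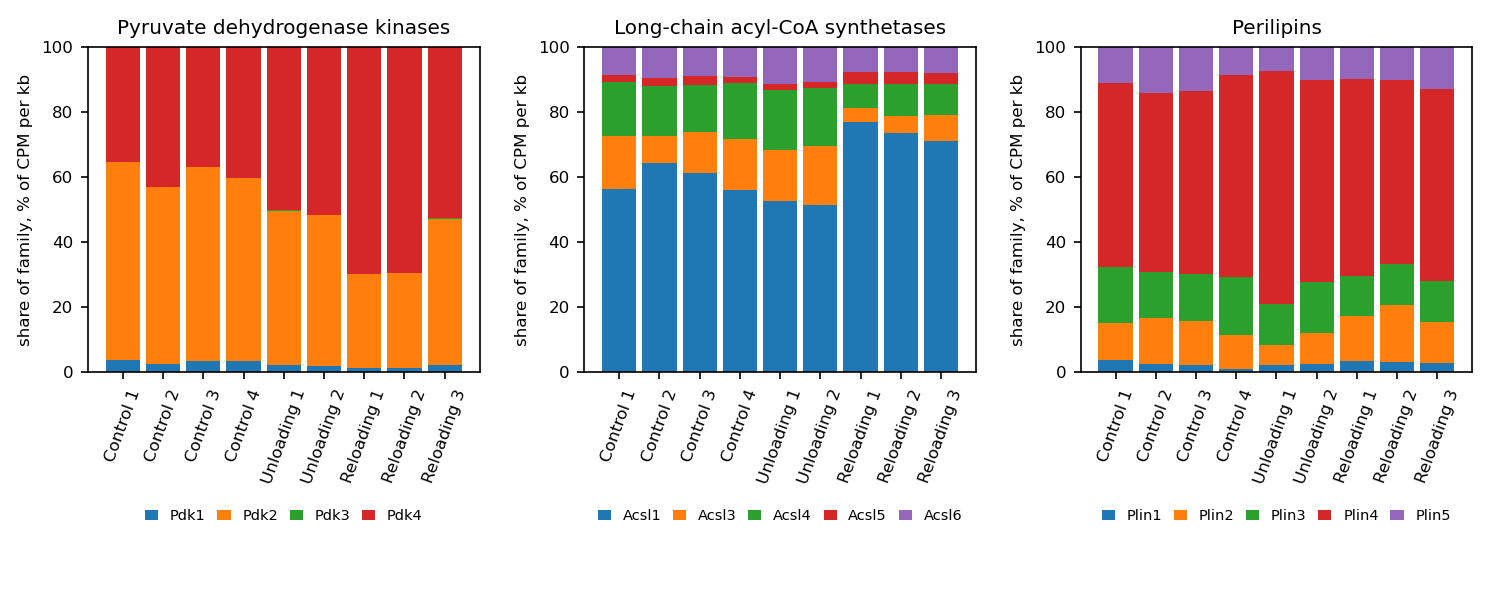
Share of each gene in its family per library, in percent of the summed CPM per kilobase of unshared exon, for the pyruvate dehydrogenase kinases, the long-chain acyl-CoA synthetases and the perilipins, with bars that add up to 100%. Pdk4 takes 35.3% to 42.9% of its family in Control and 52.7% to 69.7% in Reloading, Acsl1 is above 71% of its family only in the Reloading libraries, and Plin2 has its lowest shares in the Unloading libraries.

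Ucp3 (ENSMUSG00000032942, chr7:100472990-100486432, plus strand) encodes the uncoupling protein of muscle mitochondria, which follows fatty acid supply. It was at 104, 134, 121 and 123 CPM in Control, 131 and 174 CPM in Unloading, and 177, 158 and 102 CPM in Reloading. All 3 groups overlapped. Ucp3 passed the test in none of the 3 comparisons, with intervals of -0.02 to 0.70 for Unloading against Control, -0.45 to 0.31 for Reloading against Unloading and -0.05 to 0.59 for Reloading against Control. It passed as 0.48 (adjusted p = 0.00418) against Control when Reloading 3 was left out.

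**Figure D3:**
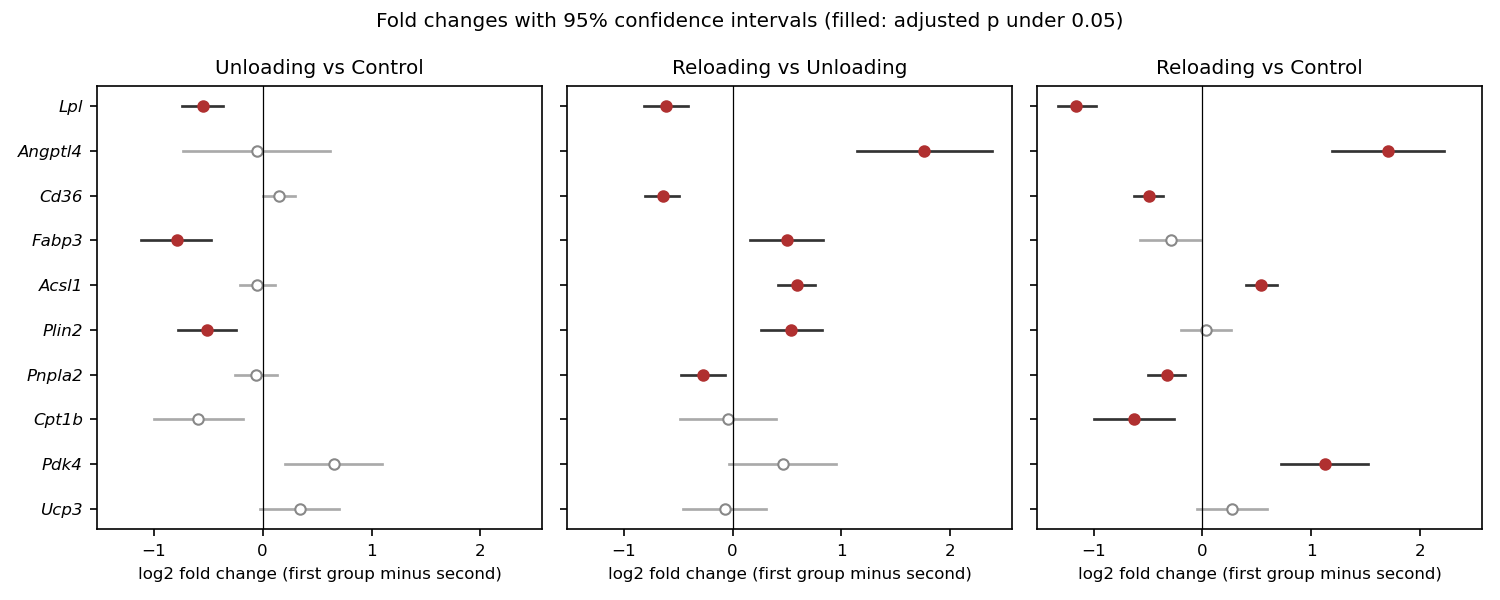
Log2 fold changes of the 10 genes in the 3 comparisons, the first group minus the second, with 95% confidence intervals as lines and filled points where the adjusted p was under 0.05. Lpl is lower in each panel, Angptl4 and Acsl1 pass the test only in the comparisons that involve Reloading, and Fabp3 and Plin2 change sign between the first and second panels.

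The Reloading libraries differed among themselves more for some genes than for others. Reloading 3 held the lowest value of its group for Pdk4, Angptl4, Ucp3, Plin2, Cpt1a and Gpihbp1 and the highest for Lpl, Cd36, Fabp3, Pnpla2 and Cpt1b. For Pdk4 the coefficient of variation among the Reloading libraries was 34.4%, against 18.4% in Control. For Angptl4, Ucp3 and Cpt1b it was 33.1%, 26.7% and 25.5%. Cd36, Pnpla2, Acsl1 and Fabp3 varied little in the same libraries, by 5.24%, 6.01%, 6.05% and 7.77%.

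Per kilobase of unshared exon, the 10 genes spanned a wide range of levels. Fabp3 was the most abundant in each group, at 381 ± 75.4, 220 ± 36.7 and 312 ± 24.2 CPM per kilobase in Control, Unloading and Reloading. Pdk4 came second in each, at 116 ± 21.3, 182 ± 23.3 and 251 ± 86.5, separate from Fabp3 in Control and overlapping with it in Unloading and in Reloading. Next in Control came Pnpla2, Cd36 and Lpl, at 68.9 ± 6.59, 65.7 ± 1.68 and 58.8 ± 2.24, where Pnpla2 overlapped with both others and Cd36 and Lpl were separate. Ucp3 and Acsl1 followed without overlap at 38.4 ± 4.05 and 28.5 ± 1.6. In Reloading Lpl had dropped to seventh place, at 26.4 ± 3.27, below Acsl1 at 41.4 ± 2.51, and these neighbours did not overlap. Plin2 was at 8.64 ± 1.15 in Control and Angptl4 at 0.605 ± 0.163, the lowest in each group. Cpt1b, next to Plin2 in this order at 9.77 ± 1.03, is placed with the limit on its exons given above.

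The other genes of lipid delivery and uptake rose more often than they fell during reloading. Of the listed genes, 12 had enough reads to be tested. In Unloading against Control 1 of the 12 rose, the lipoprotein receptor Lrp1 (0.34 ± 0.09, adjusted p = 0.0257), and 1 fell, Got2 (-0.32 ± 0.08, adjusted p = 0.026), against 4.40% and 5.50% of all tested genes. Without Unloading 1, 0 of the 12 passed, and 1 passed without any one of Unloading 2, Control 1, Control 3 and Control 4. In Reloading against Unloading 6 rose and 2 fell, against 18.5% and 19.0% of all tested genes, with a median of 0.32 beside 0.03 for all genes. The fatty acid transport protein Slc27a4 rose from 9.06 ± 0.213 to 18.1 ± 1.59 CPM (0.99 ± 0.15, adjusted p = 0.000149), the binding protein Fabp5 rose (0.92 ± 0.22, adjusted p = 0.0039) and so did Cav1 of the caveolar membrane (0.82 ± 0.09, adjusted p = 1.2e-05). Vldlr, a receptor that binds triglyceride-rich lipoproteins, fell (-0.79 ± 0.12, adjusted p = 0.000131), as did Slc27a1 (-0.28 ± 0.10, adjusted p = 0.0412), the latter not with scaling by library totals alone. Without Reloading 2, Reloading 3 or Unloading 2 only 1 fell. In Reloading against Control 6 rose and 2 fell, against 22.1% and 21.3% of all tested genes.

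Among 21 other genes of lipid storage and lipolysis, 0 rose and 3 fell with unloading, beside 4.40% and 5.50% of all tested genes. At an unadjusted p under 0.05 in edgeR 2 were higher, and at an adjusted p under 0.05 in DESeq2 0 were. Those that fell were G0s2, an inhibitor of adipose triglyceride lipase (-0.83 ± 0.17, adjusted p = 0.00688), Dgat2, which makes triglyceride (-0.70 ± 0.11, adjusted p = 0.0018), and the desaturase Scd2 (-0.52 ± 0.15, adjusted p = 0.0477). Without Unloading 1, 0 rose and 1 fell, without Unloading 2, 1 rose and 2 fell, and without Control 4, 1 rose and 3 fell. With reloading 3 of the 21 rose and 4 fell against Unloading, beside 18.5% and 19.0% of all tested genes, so the list was near the background, and without Unloading 1 the counts were 1 and 3. The monoglyceride lipase Mgll went from 23.9 ± 0.772 to 47.2 ± 2.26 CPM (0.98 ± 0.13, adjusted p = 5.12e-05). Scd2 rose again (0.58 ± 0.16, adjusted p = 0.0109), while Fitm1, which promotes droplet formation (-0.63 ± 0.10, adjusted p = 0.000199), Plin4 (-0.60 ± 0.15, adjusted p = 0.00472) and Plin3 (-0.56 ± 0.12, adjusted p = 0.00165) fell. Against Control 3 rose and 6 fell, beside 22.1% and 21.3% of all tested genes, with Dgat2 at -0.97 ± 0.10 (adjusted p = 1.55e-06). These counts were 5 and 5 with the replicate block by description number, and 1 and 3 without the libraries that held skin transcripts. With scaling by library totals alone, the counts reversed their balance to 8 higher and 2 lower against Unloading and 6 higher and 3 lower against Control.

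Beta-oxidation is the mitochondrial breakdown of fatty acids. Of its 15 listed genes, 0 rose and 7 fell in Unloading against Control, beside 4.40% and 5.50% of all tested genes. The median was -0.28 beside 0 for all genes. At an unadjusted p under 0.05 in edgeR 1 was higher, and at an adjusted p under 0.05 in DESeq2 0 were. Without Unloading 1, 0 of the 15 passed in either direction, at a median of -0.22, and without Control 4, 1 rose and 5 fell. Acads fell most (-0.59 ± 0.10, adjusted p = 0.00331), followed by Hadh (-0.47 ± 0.09, adjusted p = 0.00471). In Reloading against Unloading 0 rose and 9 fell, beside 18.5% and 19.0% of all tested genes, and with scaling by totals alone 1 rose and 3 fell. The 9 became 4 without Reloading 2 and 3 without Unloading 2. In both comparisons with Reloading, 0 were higher at an unadjusted p under 0.05 in edgeR and 0 at an adjusted p under 0.05 in DESeq2. In Reloading against Control 0 rose and 14 fell (1 and 9 by totals alone), beside 22.1% and 21.3% of all tested genes, and Echs1 fell from 109 ± 3.56 to 54.5 ± 5.44 CPM (-0.99 ± 0.08, adjusted p = 1.35e-07).

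Of 16 genes of the pyruvate dehydrogenase complex, its regulators, the pyruvate carrier and the other carriers, 0 rose and 8 fell with unloading. Of all tested genes, 4.40% rose and 5.50% fell. Among the 8 were Mpc2 of the mitochondrial pyruvate carrier (-0.41 ± 0.08, adjusted p = 0.00544) and Dlat, a core subunit of the complex (-0.38 ± 0.08, adjusted p = 0.0079). At an unadjusted p under 0.05 in edgeR 1 of the 16 was higher, and at an adjusted p under 0.05 in DESeq2 0 were. Without Unloading 1, 0 of the 16 passed, at a median of -0.22 in place of -0.30, and without Control 1, 1 rose and 7 fell. Against Unloading, 2 rose and 9 fell in Reloading, beside 18.5% and 19.0% of all tested genes, or 4 and 3 by totals alone. Without Unloading 2, 1 rose and 6 fell, and without Unloading 1, Reloading 1, Reloading 2 or the skin-bearing libraries, 1 rose and 9 fell. The phosphatase Pdp1, which reverses the kinases, fell (-0.80 ± 0.10, adjusted p = 3.08e-05), as did Mpc1 (-0.66 ± 0.09, adjusted p = 6.36e-05), and the nucleotide carrier Slc25a5 rose (1.18 ± 0.12, adjusted p = 4.61e-06). Against Control, 2 rose and 12 fell, beside 22.1% and 21.3% of all tested genes.

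For 17 genes of fatty acid activation and mitochondrial entry, 2 rose and 2 fell with unloading, beside 4.40% and 5.50% of all tested genes. The falls were in Cpt2, which rebuilds acyl-CoA inside the mitochondrion (-0.41 ± 0.09, adjusted p = 0.00796), and the thioesterase Acot13 (-0.34 ± 0.07, adjusted p = 0.00799). Without Unloading 1, 0 rose and 0 fell, without Unloading 2, 1 rose and 4 fell, and without Control 1 or Control 3, 1 rose and 2 fell. In Reloading 2 of the 17 rose and 6 fell against Unloading, beside 18.5% and 19.0% of all tested genes, a balance that turned to 7 and 2 by totals alone, and without Unloading 1 the counts were 1 and 7. Against Control 4 rose and 7 fell (6 and 5 by totals alone), beside 22.1% and 21.3% of all tested genes.

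**Figure D4:**
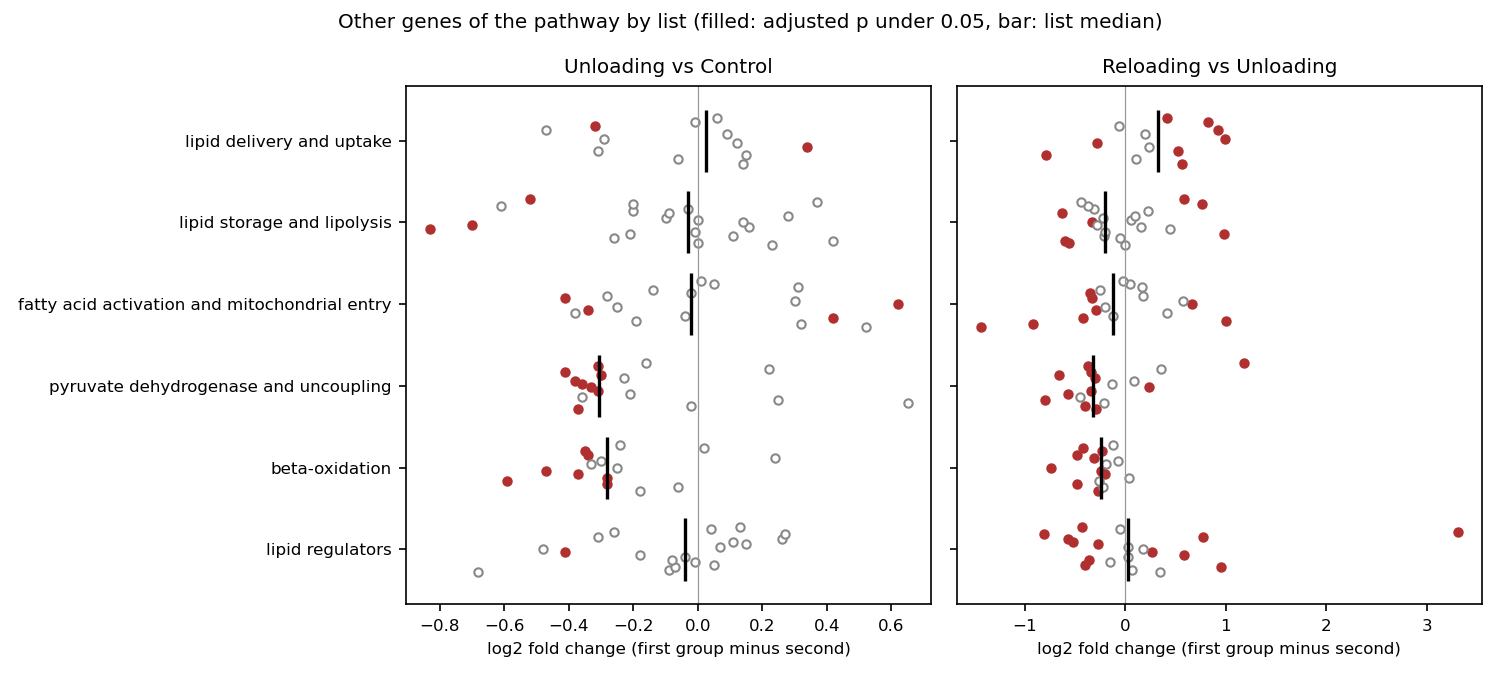
Log2 fold changes of the other genes of the pathway in Unloading against Control and in Reloading against Unloading, by list, with a point per tested gene, filled where the adjusted p was under 0.05, and a bar at the median of the list. The beta-oxidation and pyruvate dehydrogenase lists lie mostly left of 0 in both panels with TMM scaling, and Nr4a3 is the point beyond 3 in the second.

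Of 19 transcription factors and coactivators that govern these genes, 0 rose and 1 fell with unloading, beside 4.40% and 5.50% of all tested genes. The fall was in the oestrogen-related receptor Esrra (-0.41 ± 0.09, adjusted p = 0.013). At an unadjusted p under 0.05 in edgeR 1 was higher, and at an adjusted p under 0.05 in DESeq2 0 were. The 1 that fell became 0 without Unloading 1, 2 without Control 1 or Reloading 3, and 3 without Reloading 1. With reloading 5 rose and 7 fell against Unloading, or 7 and 2 by totals alone, beside 18.5% and 19.0% of all tested genes. Without Reloading 2 or Reloading 3, 3 rose and 6 fell, and without Unloading 2, 4 rose and 4 fell. The orphan receptor Nr4a3, an early response gene of contracting muscle, rose from 3.00 ± 0.543 to 30.3 ± 3.94 CPM (3.31 ± 0.17, adjusted p = 4.99e-09), and the carbohydrate response factor Mlxipl rose (0.77 ± 0.11, adjusted p = 5.8e-05). Klf15, a glucocorticoid target that controls lipid use, fell (-0.81 ± 0.17, adjusted p = 0.00157), as did the glucocorticoid receptor Nr3c1 (-0.52 ± 0.10, adjusted p = 0.00119). Against Control, 4 rose and 6 fell, beside 22.1% and 21.3% of all tested genes. By totals alone 6 rose and 0 fell, and without Reloading 3, 2 rose and 7 fell.

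The fatty acid receptors were Ppara, Ppard and Pparg, whose known targets include Pdk4, Angptl4, Plin2, Acsl1 and Ucp3. Ppard, the main form in muscle, was at 38.4 ± 2.94, 36.0 ± 3.54 and 37.7 ± 2.25 CPM in Control, Unloading and Reloading, and the coactivator Ppargc1a at 40.2 ± 3.62, 39.0 ± 3.25 and 39.6 ± 6.48 CPM. Neither passed the test in any comparison. Ppara was lower in Unloading than in Control without passing (-0.68 ± 0.29, adjusted p = 0.155). Pparg, the form of adipocytes, was scarce at 2.03 ± 0.626 CPM in Unloading and rose to 3.84 ± 0.519 CPM in Reloading (0.95 ± 0.33, adjusted p = 0.0344).

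By correlation of log2 CPM over the 9 libraries, among 9859 genes of sufficient level, the genes most like Pdk4 were Lhfp (r = 0.963), Slc30a5 (0.961) and Rnf103 (0.957). Those most like Lpl were Mrpl27 (0.992), Il15 (0.988) and Carnmt1 (0.988). Those most like Plin2 were Pfn1 (0.987), Alg3 (0.975) and Ppp2cb (0.97). Il15, for example, read 6.43, 6.3, 6.43 and 6.69 CPM in Control, 4.94 and 4.7 CPM in Unloading and 2.66, 2.46 and 3.05 CPM in Reloading, the same descent as Lpl. The points share the 3 groups and their scaling, so these are descriptions of a pattern.

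Several cell types of the muscle contribute to these transcripts, and in whole-muscle RNA fewer cells of a type and less RNA per cell cannot be told apart. The summed level of 12 endothelial markers was 235 to 279 CPM in Control, 236 to 237 CPM in Unloading and 398 to 493 CPM in Reloading. Against Unloading 10 of the 12 rose, where 18.5% of all tested genes rose and 19.0% fell. For 13 macrophage markers the sums were 96.8 to 117, 100 to 101 and 190 to 213 CPM, and 12 rose. Neither list had a marker at 0. The 9 adipocyte markers, of which Cidec and Plin1 also belong to lipid storage, summed to 58.6 to 138 CPM in Control. They summed to 86.7 to 107 CPM in Unloading and 120 to 139 CPM in Reloading. Of the 8 that were tested 1 rose, near the share of all tested genes, and only Adrb3 was at 0 in a library. The 10 fibre markers fell from 168000 to 185000 CPM in Control and 167000 to 175000 CPM in Unloading to 117000 to 131000 CPM in Reloading. Against Unloading 8 of these fell, beside 19.0% of all tested genes. Slow-fibre markers summed to 838 to 1390, 717 to 1170 and 614 to 698 CPM, and 3 of the 8 fell. Their part in the changes of Lpl, Angptl4, Gpihbp1, Cd36 and the other genes in Reloading was not tested.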

How the data were processed

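Per the labels and the study's methods, polyadenylated RNA was sequenced and the authors aligned it to GRCm38 with STAR 2.7.3a. The authors' counts of read pairs came from featureCounts 2.0.3, without strand, on Ensembl release 102. The deposited counts are raw, for 55487 genes, with exon length in bases, another deposited column. The methods state single reads, whereas the labels and the counts are read pairs. The authors also deposited DESeq2 tables of the 3 comparisons, with their mean signal (normalised counts over all libraries), fold changes and p-values, of which gene symbols alone were used. Symbols came from these tables for 14823 tested genes and from a reference for 23.

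Genes were kept by filterByExpr (minimum count 10, minimum total 15), leaving 14851 of 34376 with reads. All 9 libraries entered one edgeR 4.0.16 quasi-likelihood fit in R 4.3.3, with group as the term and TMM scaling. P-values are two-sided and adjusted by Benjamini and Hochberg over all tested genes, and called under 0.05. The common dispersion between libraries was a coefficient of variation of 0.0927. Errors after fold changes are SE, and those after levels SD. Counts of the 14851 genes were simulated, all at the common dispersion, with changes placed only in better-covered genes, which left out Angptl4. At least 95% of genes changed by 1 on the log2 scale were recovered in each of the 3 comparisons. For a change of 0.5 it was at least 44%. These shares do not cover scarcer genes or genes that vary more between libraries. Overlaps of exons came from the deposited annotation columns.

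Members, lists and tests were chosen with earlier results of these data known. Beyond the 10 genes, up to 3 rising and 3 falling genes with the largest change were eligible to be named per list and comparison, plus Gpihbp1, 4 regulators, and the 3 genes most alike to Pdk4, Lpl and Plin2. Genes of no such rule (Gm44502, Adrb3 and those of the checks) were named after their values were seen.

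Alternatives were RLE scaling, library totals, no filter, DESeq2 1.42.0, only the groups compared, a robust fit, mitochondrial genes or skin-bearing libraries left out, each library left out, and a replicate block. Replicate numbers in titles and in descriptions differ. Deviations of same-numbered libraries correlated at -0.201 to 0.075 by title. By description they correlated at 0.361, 0.143 and 0.155 for Control with Reloading and at 0.054 and 0.075 for Control with Unloading. The 1 shared number of Reloading and Unloading gave 0.017. The value of 0.361 came from Control 2 with Reloading 1, the 2 libraries that held skin transcripts. Whether description numbers mark a pairing is not stated in the labels and was not established.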

Additional observations from a re-analysis of the deposited data

How the results depend on the processing

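Without the low-count filter, 5 of the 10 genes passed as higher and 3 as lower in Reloading against Unloading, and 4 and 5 in Reloading against Control. The replicate block by title number also gave 5 and 3 in Reloading against Unloading. In Unloading against Control 3 of the 10 genes passed, but 5 without that filter and 5 when only the 2 groups entered the fit. Leaving out one library at a time gave 1 to 5 there, 5 to 7 in Reloading against Unloading and 7 to 8 in Reloading against Control. The 1 was Lpl, without Unloading 1, which also took the called genes of that comparison from 1470 to 121, and without Control 3 they were 949. The ranges over single libraries were 121 to 1518, 3934 to 5654 in Reloading against Unloading and 5267 to 6506 in Reloading against Control. A log2 fold change of 0.66 for Pdk4 in Unloading against Control passed with the skin-bearing libraries left out (0.78, adjusted p = 0.0268), with only the 2 groups (0.65, adjusted p = 0.00945) and without Control 2 (0.78, adjusted p = 0.0295). The rise of Fabp3 in Reloading against Unloading was also lost with the robust fit (adjusted p = 0.105) and without Reloading 3 (adjusted p = 0.0597), and its fall with unloading with the robust fit (adjusted p = 0.0506). By totals alone Ucp3 passed in Reloading against Control (0.51, adjusted p = 0.0101) and Pdk4 against Unloading (0.71, adjusted p = 0.0226), and 82.8% and 80.2% of called genes were higher in Reloading against Unloading and against Control, where TMM scaling gave 49.3% and 50.9%. The causes were not tested.

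With the replicate block by description, 8 of the 10 genes passed in Reloading against Control, Fabp3 being added. It changed no other call among the 10 in that comparison. Of the lists in that comparison, it gave 5 higher and 5 lower for storage, 7 and 3 for delivery and 4 and 9 for the regulators. In the comparisons with Unloading, the block by description gave 4 passing genes against Control, Pdk4 added (0.60, adjusted p = 0.0274). It gave 6 in Reloading against Unloading, Fabp3 lost (0.29, adjusted p = 0.0588). By title number the block gave 1042 called genes in Unloading against Control.

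No result changed direction between the main analysis and these alternatives among the called values of the 10 genes. With 2 Unloading libraries and 15 to 34 read pairs of Angptl4 or 47 to 84 of Cpt1b per Control library, small changes of these genes were not detectable.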
